A study of Mus musculus with 33 samples.

Results

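*Usp26*, *Cdh9*, *Tarm1*, *Ccdc170*, *Dcdc2a*, *Gm45351* and *Gm17019* were picked by name because their mRNA levels differed most between *wild-type* mouse embryonic stem cells (ESCs) and ESCs that lack *Hp1β*, either alone or together with *Hp1α*. They are 7 of the 55487 genes listed in the RNA-seq tables of 33 libraries, which cover 11 conditions with 3 libraries each. All cells carry the strain label C57BL/6. Each HP1 gene was knocked out alone (HP1α KO, HP1β KO, HP1γ KO), in pairs (HP1β/α DKO, HP1γ/α DKO, HP1β/γ DKO) and all together (HP1β/γ/α TKO, below the triple mutant), and 2 *wild-type* sets, A and B, SETDB1 FF ESCs and SETDB1 KO cells complete the series. The single and double mutants are constitutive CRISPR knockout lines grown on embryonic fibroblast feeders. The triple mutant was made from HP1β/α DKO ESCs with a floxed *Hp1γ* by transfection of *Cre*, and SETDB1 KO cells came from floxed SETDB1 FF ESCs. The single mutants, HP1β/α DKO ESCs and the triple mutant were deposited beside set A, and HP1γ/α DKO and HP1β/γ DKO ESCs beside set B. The number of clones behind each genotype was not given in the sources used here, so the p-values measure the spread between libraries, and a difference between clones cannot be told apart from a difference between genotypes.

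HP1α, HP1β and HP1γ, encoded by *Cbx5*, *Cbx1* and *Cbx3*, are chromodomain proteins that bind histone H3 methylated at lysine 9 and are known for compacting heterochromatin. SETDB1 is a methyltransferase that places this mark and silences retroelements and germline genes in ESCs. USP26 is a deubiquitinase whose X-linked gene is known for expression in male germ cells. CDH9 is a type II classical cadherin of neurons, TARM1 is an immunoglobulin-like receptor of myeloid cells, CCDC170 is a coiled-coil protein tied to microtubules, and DCDC2A is a doublecortin domain protein that binds microtubules in cilia. *Gm45351* and *Gm17019* are gene models without an assigned function.

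The name under which these genes were gathered, a response to loss of *Hp1β*, was not borne out as particular to that loss. In HP1γ/α DKO ESCs, which keep *Hp1β*, 5 of the 6 genes that could be tested were called against set B, beside 23.1% of all genes tested. All 5 lay in the direction seen in HP1β KO ESCs, which for *Dcdc2a* was fixed by the filter on low counts. *Cdh9*, *Ccdc170* and *Dcdc2a* moved further there than in HP1β/γ DKO ESCs. They are therefore described here by the rule that picked them.

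Expression was measured as estimated counts per gene and is given as CPM, counts scaled to library totals with TMM factors over all libraries. Total counts per library ran from 17330936 to 25743149. *Cbx1* averaged 104 CPM (SD 6.26, n = 3) in HP1β KO ESCs against 441 CPM (SD 9.17, n = 3) in set A, and from 42.1 to 111 CPM over the 12 libraries that lack *Hp1β*. In the *Hp1* mutants that keep it and in both *wild-type* sets it ran from 358 to 470 CPM. Replicate 2 of HP1γ/α DKO ESCs stood apart from its group. No call on the 7 genes in that genotype changed without it, and some of the values without it are given below. The 8 pluripotency markers summed to 3491 to 3937 CPM in both *wild-type* sets, the single mutants and HP1β/α DKO and HP1β/γ DKO ESCs, but to 5885 to 8572 CPM in HP1γ/α DKO ESCs to 1436 to 1479 CPM in the triple mutant, to 6282 to 6307 CPM in SETDB1 FF ESCs and to 4438 to 4501 CPM in SETDB1 KO cells. All 8 were detected in every condition. The 8 feeder fibroblast markers summed to 24.1 to 24.9 CPM in set A, 42.1 to 50.4 CPM in set B and 9.79 to 11.2 CPM in HP1γ/α DKO ESCs, and 7 of the 8 had counts in *wild-type* cells, with *Lum* at 0. The 5 markers of 2-cell-like cells had no counts in set A and summed to 34.4 to 34.7 CPM in HP1β/γ DKO ESCs, 12.3 to 13.3 CPM in the triple mutant and 44.0 to 49.1 CPM in SETDB1 KO cells. The 4 primitive endoderm markers summed to 1.06 to 3.18 CPM in *wild-type*, single and double mutant ESCs, 14.9 to 15.6 CPM in the triple mutant, 12.2 to 12.9 CPM in SETDB1 FF ESCs and 7.55 to 8.10 CPM in SETDB1 KO cells. The part of these cell states in the results below was not tested. In bulk RNA, fewer cells of one type and less RNA per cell cannot be told apart.

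The 7 genes lie on 6 chromosomes of GRCm38. *Usp26* (ENSMUSG00000055780) spans chromosome X from 51753959 to 51801233 on the minus strand, *Cdh9* (ENSMUSG00000025370) chromosome 15 from 16728756 to 16857094 on the plus strand, and *Tarm1* (ENSMUSG00000053338) chromosome 7 from 3486500 to 3502624 on the minus strand. *Ccdc170* (ENSMUSG00000019767) spans chromosome 10 from 4482502 to 4562231 and *Dcdc2a* (ENSMUSG00000035910) chromosome 13 from 25056004 to 25210706, both on the plus strand. *Gm45351* (ENSMUSG00000092178), annotated as an unprocessed pseudogene, spans chromosome 7 from 9868880 to 9876966, and *Gm17019* (ENSMUSG00000091897), annotated as protein coding, spans chromosome 5 from 15028950 to 15032998, both on the minus strand. *Cdh9* is overlapped by an antisense gene and *Dcdc2a* by a pseudogene on the opposite strand, and *Tarm1* and *Ccdc170* each by another annotated gene on the same strand, so a share of their reads could belong to those.

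All 7 genes matched the RefSeq promoter table of GRCm38.p6. Windows of 250 bases directly before the annotated start are printed for the member whose *wild-type* level was highest, for both members that read higher in every *Hp1* mutant than in set A, and for the member with near-identical copies. They are written 5′ to 3′ on the strand of the gene, with every CpG in capitals. The *Usp26* window is chrX:51801234-51801483 on the minus strand, that of *Dcdc2a* is chr13:25055754-25056003 on the plus strand, that of *Gm45351* is chr7:9876968-9877217 on the minus strand and that of *Gm17019* is chr5:15033008-15033257 on the minus strand.
Usp26: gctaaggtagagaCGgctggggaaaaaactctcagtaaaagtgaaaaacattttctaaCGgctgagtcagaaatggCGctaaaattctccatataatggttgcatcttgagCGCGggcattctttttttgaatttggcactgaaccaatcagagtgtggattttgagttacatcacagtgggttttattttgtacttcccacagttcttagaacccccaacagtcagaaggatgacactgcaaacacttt
Dcdc2a: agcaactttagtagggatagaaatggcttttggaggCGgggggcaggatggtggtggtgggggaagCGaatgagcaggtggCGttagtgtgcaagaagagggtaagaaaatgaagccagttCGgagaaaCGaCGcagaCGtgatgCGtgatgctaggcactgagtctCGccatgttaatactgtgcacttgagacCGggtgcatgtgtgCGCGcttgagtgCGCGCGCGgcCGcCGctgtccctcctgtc
Gm45351: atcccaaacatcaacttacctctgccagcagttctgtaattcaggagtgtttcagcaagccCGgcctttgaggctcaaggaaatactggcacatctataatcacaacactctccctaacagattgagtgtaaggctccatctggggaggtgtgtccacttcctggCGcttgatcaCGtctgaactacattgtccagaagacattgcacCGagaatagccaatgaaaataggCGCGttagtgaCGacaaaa
Gm17019: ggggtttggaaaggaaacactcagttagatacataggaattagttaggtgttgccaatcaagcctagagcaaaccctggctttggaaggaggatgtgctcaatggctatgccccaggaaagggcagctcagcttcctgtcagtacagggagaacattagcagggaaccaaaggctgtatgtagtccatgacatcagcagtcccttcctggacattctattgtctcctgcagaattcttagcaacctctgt
The *Dcdc2a* window holds 18 CpG, more than 78.3% of the 32851 windows in the table, whereas that of *Gm45351* holds 7, that of *Usp26* 5 and that of *Gm17019* none, against a median of 6. The windows of *Cdh9*, *Tarm1* and *Ccdc170* hold 6, 2 and 7 CpG. *Dcdc2a* and *Gm45351* thus differ in CpG content although both read higher in every *Hp1* mutant. Neither CACGTG, the E-box bound by MAX heterodimers, nor GCGGGAA, searched on both strands as a site of E2F6, occurs in any of the 7 windows. Of all windows 6.02% hold the first and 3.82% the second. TATAAA, searched on the strand of the gene, occurs in the *Tarm1* window alone among the 7 and in 7.59% of all windows.

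The levels that picked the genes are given as a description. *Usp26* read 172, 171 and 178 CPM in set A, 7.14, 7.89 and 8.06 CPM in HP1β KO ESCs and 5.62, 3.98 and 4.98 CPM in HP1β/α DKO ESCs. *Tarm1* read 5.83, 4.68 and 5.87 CPM in set A, 0.473, 0.0456 and 0.146 CPM in HP1β KO ESCs and 0.567, 0.954 and 0.799 CPM in HP1β/α DKO ESCs. Both genes were thus far lower in all 6 mutant libraries, *Usp26* more so in the double mutant and *Tarm1* more so in the single mutant. *Ccdc170* read 5.88 to 8.24 CPM in set A, 0.319 to 0.42 CPM without *Hp1β* and 2.26 to 2.99 CPM when *Hp1α* was lost as well. *Cdh9* showed the opposite order, with 10.9 to 11.9 CPM in set A, 2.37 to 3.78 CPM in HP1β KO ESCs and 0.332 to 0.67 CPM in HP1β/α DKO ESCs.

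Among the genes picked for a rise, *Dcdc2a* read 0.231, 0.417 and 0.291 CPM in set A, 2.78, 3.78 and 2.77 CPM in HP1β KO ESCs and 18.7, 19.8 and 18.9 CPM in HP1β/α DKO ESCs. *Gm45351* read 0.139 to 0.324 CPM in set A, 4.94 to 7.43 CPM in HP1β KO ESCs and 6.8 to 8.55 CPM in HP1β/α DKO ESCs. *Gm17019* read 1.07 to 1.71 CPM, 10.8 to 13.4 CPM and 3.71 to 3.86 CPM in the same order. Only *Dcdc2a* among the 3 was several times higher in the double than in the single mutant. All 7 passed the filter on low counts in both comparisons and differed there by the thresholds used below, as the choice of genes required, beside 9.10% and 8.15% of all genes tested. Ranked by fold among called genes with a symbol, separated groups and at least 5 CPM in the higher group, *Gm45351* (log2 fold change 4.70) and *Gm17019* (3.13) were the rises of rank 1 and 3 in HP1β KO ESCs, with *Hes3* (2.97) and *Nefm* (2.97) next outside. *Tarm1* (−4.66), *Usp26* (−4.51) and *Ccdc170* (−4.30) were the falls of rank 1 to 3, with *Gm49229* (−3.56) and *Efhc2* (−3.49) next outside. In HP1β/α DKO ESCs *Dcdc2a* (5.91) and *Gm45351* (5.08) were the rises of rank 2 and 3, ahead of *Cyp2b23* (4.20) and *Rpl39l* (3.72). *Usp26* (−5.17) and *Cdh9* (−4.41) were the falls of rank 1 and 2, with *Efhc2* (−3.96) among those outside.

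**Figure D1:**
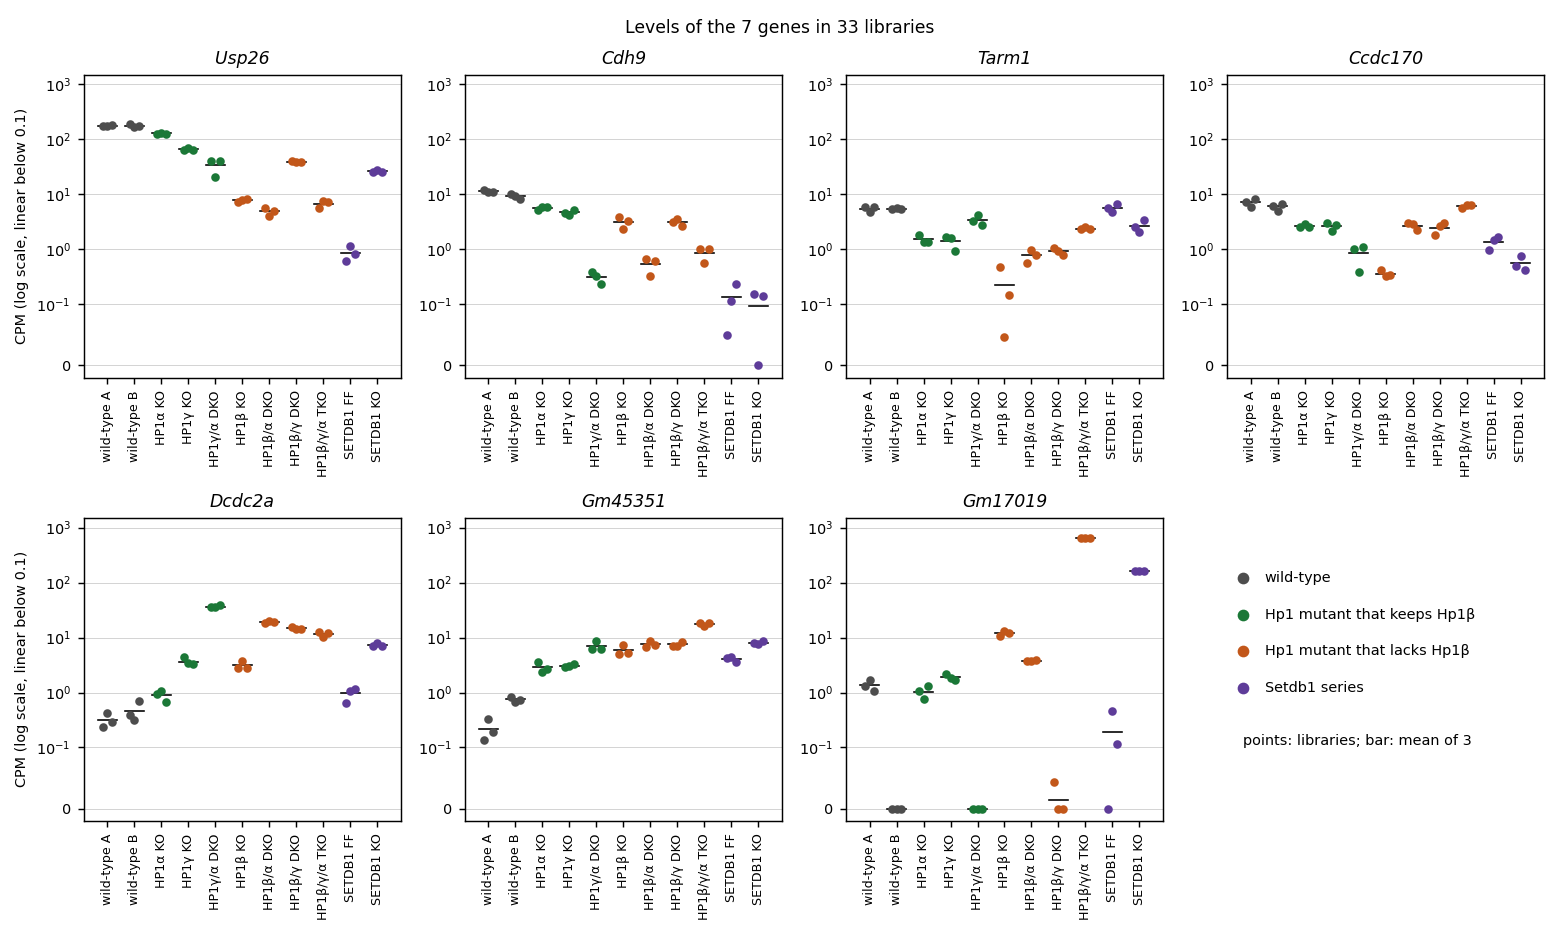
CPM of each of the 7 genes (one panel each, log scale that is linear below 0.1) in all 33 libraries, with points for libraries, bars for the mean of 3 and colours for whether an *Hp1* mutant keeps *Hp1β*. *Usp26* falls from 174 CPM in *wild-type* set A to 4.86 CPM in HP1β/α DKO ESCs, *Dcdc2a* is highest in HP1γ/α DKO ESCs, which keep *Hp1β*, and *Gm17019* is listed at 0 in all libraries but one of the tables that hold set B.

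Between single mutants of the set A tables the same genes stood apart, again as a description. Between HP1β KO and HP1α KO ESCs 5 of the 7 passed the thresholds, beside 6.09% of all genes, with log2 fold changes of −4.06 for *Usp26*, −2.80 for *Tarm1*, −2.89 for *Ccdc170*, 1.79 for *Dcdc2a* and 3.53 for *Gm17019*. Between HP1β KO and HP1γ KO ESCs 4 of the 7 did, beside 3.86% of all genes, and *Dcdc2a* differed by only −0.25. Between HP1β/α DKO and HP1α KO ESCs it was 5 of the 7, beside 4.20% of all genes, led by *Usp26* (−4.71) and *Dcdc2a* (4.43), while *Ccdc170* differed by 0.02. In these libraries *Usp26* was thus far lower without *Hp1β*, whereas the *Dcdc2a* levels after loss of *Hp1γ* and of *Hp1β* overlapped.

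Levels of different genes can be compared only per length. On that scale, the deposited TPM, *Usp26* was the most abundant of the 7 genes in *wild-type* set A at 33.3 ± 0.865 TPM (SD, n = 3). *Cdh9*, *Tarm1*, *Ccdc170* and *Gm17019* stood at 4.62 ± 0.282, 3.94 ± 0.233, 2.61 ± 0.46 and 1.83 ± 0.422 TPM (SD, n = 3). *Dcdc2a* and *Gm45351* were nearly silent, at 0.173 ± 0.11 and 0.13 ± 0.0624 TPM (SD, n = 3). The rule fixes part of this order, since a gene with a large fall must be expressed in set A and one with a large rise must start low.

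To ask whether these differences recur in libraries that had no part in the choice, HP1β/γ DKO and HP1γ/α DKO ESCs were each set against *wild-type* set B. To be called changed a gene had to pass 0.05 after Benjamini-Hochberg adjustment over all genes tested in edgeR's quasi-likelihood fit, and to differ by more than 1 on the log2 scale. In HP1β/γ DKO ESCs, 6 of the 6 genes tested were called, 2 higher and 4 lower, where 11.9% of all genes tested were called. In HP1γ/α DKO ESCs, which keep *Hp1β*, 5 of the 6 were called, 2 higher and 3 lower, where 23.1% of all genes were called. In each count 1 of the 2 higher is *Dcdc2a*, which had 7 to 15 counts per library in set B. It passed the filter on low counts through the mutants and could only come out higher, so its direction is not read. The median absolute log2 fold change of the 6 genes was 2.38 in the former and 2.998 in the latter, against 0.26 and 0.51 over all genes. *Gm17019* had too few counts for either test.

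The 4 genes picked as falling were lower in both double mutants. *Usp26* read 188, 167 and 172 CPM in set B, 39.4, 38.4 and 38.2 CPM in HP1β/γ DKO ESCs and 39.6, 21.0 and 40.1 CPM in HP1γ/α DKO ESCs. On the log2 scale it differed from set B by −2.18 (standard error 0.0558, edgeR adjusted p = 8.84e-14) in the former and −2.42 (standard error 0.266, edgeR adjusted p = 0.000456) in the latter, or −2.14 without replicate 2. The libraries of the 2 double mutants thus overlapped in this deubiquitinase gene, and all 6 lay above those of HP1β KO ESCs. *Cdh9* read 10.2, 9.14 and 8.14 CPM in set B, 3.17, 3.58 and 2.63 CPM in HP1β/γ DKO ESCs and 0.391, 0.33 and 0.233 CPM in HP1γ/α DKO ESCs. It differed from set B by −1.55 on the log2 scale (standard error 0.147) in the former and by −4.87 (standard error 0.239) in the latter, so that this cadherin gene was the lower in the mutant that keeps *Hp1β*. *Aff3* and *Selenop*, the genes whose log2(CPM + 1) over the 33 libraries was most like that of *Cdh9* (Pearson r = 0.937 and 0.930), were also lowest there among the *Hp1* genotypes, at 9.19 and 2.62 CPM on average.

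*Tarm1* was lower in HP1β/γ DKO than in HP1γ/α DKO ESCs. It read 5.38, 5.55 and 5.49 CPM in set B, 1.06, 0.916 and 0.773 CPM in HP1β/γ DKO ESCs and 3.28, 4.24 and 2.75 CPM in HP1γ/α DKO ESCs. The log2 fold change was −2.58 (standard error 0.19, edgeR adjusted p = 2.30e-08) in the former and −0.73 (standard error 0.184, edgeR adjusted p = 0.0152) in the latter, the 1 value among the 6 genes that missed the fold threshold. The 5 myeloid markers summed to 22.7 to 23.4 CPM in HP1β/γ DKO ESCs, 33.8 to 51.3 CPM in HP1γ/α DKO ESCs and 28.7 to 33.7 CPM in set B, with the macrophage marker *Adgre1* at 0 in the last 2 of these. *Ccdc170* read 6.22, 5.02 and 6.77 CPM in set B, 1.81, 2.66 and 2.94 CPM in HP1β/γ DKO ESCs and 1.03, 0.385 and 1.12 CPM in HP1γ/α DKO ESCs. Its log2 fold changes were −1.27 (standard error 0.189) and −2.83 (standard error 0.357), with no overlap between either mutant and set B. The latter was −2.48 without replicate 2 of HP1γ/α DKO ESCs.

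*Dcdc2a* and *Gm45351*, picked as rising, were higher in both double mutants. The direction is read for *Gm45351* alone, since *Dcdc2a* passed the filter through the mutants. *Dcdc2a* read 0.395, 0.314 and 0.686 CPM in set B, 15.3, 14.1 and 14.4 CPM in HP1β/γ DKO ESCs and 35.3, 35.2 and 39.0 CPM in HP1γ/α DKO ESCs. The log2 fold change was 4.96 (standard error 0.185) in the former and 6.24 (standard error 0.239) in the latter. The highest level of *Dcdc2a* in the series was therefore found in cells that keep *Hp1β*. *Gm45351* read 0.839, 0.672 and 0.732 CPM in set B, 7.05, 7.02 and 8.46 CPM in HP1β/γ DKO ESCs and 6.07, 8.69 and 6.11 CPM in HP1γ/α DKO ESCs. Its log2 fold changes of 3.33 (standard error 0.189) and 3.16 (standard error 0.224) left the 2 mutants overlapping.

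The single mutants that keep *Hp1β* gave a similar picture on a smaller scale. Their control, *wild-type* set A, is the one used in the choice of genes, so a chance high or low value in set A enters both. In HP1α KO ESCs 5 of the 7 genes were called against set A, 2 higher and 3 lower, beside 4.87% of all genes tested. In HP1γ KO ESCs 6 of the 7 were called, 2 higher and 4 lower, beside 5.59% of all genes. Against set B, which had no part in the choice, 4 of the 7 were called in HP1α KO ESCs, beside 9.02% of all genes, and 6 of the 7 in HP1γ KO ESCs, beside 10.6%. In each of the latter counts 1 is *Gm17019*, whose reading of 0 in set B is set out below. In that of HP1γ KO ESCs another is *Dcdc2a*, which again passed the filter through the mutant.

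*Usp26* read 126, 130 and 126 CPM in HP1α KO ESCs and 63.5, 70.4 and 62.5 CPM in HP1γ KO ESCs, all below the lowest *wild-type* library at 167 CPM. Its log2 fold change against set A was −0.45 (standard error 0.0341, edgeR adjusted p = 1.18e-09) and −1.41 (standard error 0.0442, edgeR adjusted p = 1.78e-14). The levels of this gene thus formed steps, from *wild-type* through HP1α KO and HP1γ KO to the other mutants, and neighbours in that order did not overlap except *wild-type* sets A and B, HP1γ/α DKO with HP1β/γ DKO ESCs and SETDB1 KO cells, and the triple mutant with HP1β KO ESCs. *Cdh9* read 5.63 ± 0.345 CPM (SD, n = 3) in HP1α KO and 4.65 ± 0.495 CPM (SD, n = 3) in HP1γ KO ESCs, log2 fold changes of −1.01 and −1.29 against set A. Against set B it was called in neither, at −0.70 and −0.97. The former set A call is lost without HP1α KO replicate 1 (−0.96) or *wild-type* set A replicate 1 (−0.97). *Tarm1* read 1.504 ± 0.262 and 1.39 ± 0.404 CPM (SD, n = 3), and *Ccdc170* 2.67 ± 0.18 and 2.62 ± 0.457 CPM (SD, n = 3). For both of these genes the pair of single mutants overlapped.

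*Dcdc2a* read 0.926, 1.06 and 0.668 CPM in HP1α KO ESCs and 4.36, 3.38 and 3.24 CPM in HP1γ KO ESCs. The latter overlapped HP1β KO ESCs, and the log2 fold change against set A was 3.51 (standard error 0.335). In HP1α KO ESCs it was 1.48 (standard error 0.464, edgeR adjusted p = 0.0132), a call that is lost without HP1α KO replicate 2 or set A replicate 1, both with adjusted p = 0.0663 from edgeR. Against set B it was 0.93 (edgeR adjusted p = 0.0712), not called, and the libraries overlapped. *Gm45351* read 2.92 ± 0.659 CPM (SD, n = 3) in HP1α KO and 3.07 ± 0.16 CPM (SD, n = 3) in HP1γ KO ESCs, log2 fold changes of 3.70 and 3.77 against set A but 1.97 and 2.04 against set B. The *wild-type* sets themselves differed in this gene by a log2 fold change of 1.74 (standard error 0.456, edgeR adjusted p = 0.0109), and without set A replicate 1 or with DESeq2 this call is lost. Between sets B and A 2 of the 6 genes tested were called, *Gm45351* and *Gm17019*, beside 5.68% of all genes. Each passed the filter through the set in which it was higher, so the direction is not read. *Usp26*, *Tarm1* and *Ccdc170* differed between the sets by log2 fold changes of 0.02, 0.01 and −0.24, with 95% intervals from −0.08 to 0.12, from −0.28 to 0.30 and from −0.55 to 0.07. *Cdh9* differed by −0.30 (adjusted p = 0.0641 from edgeR).

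**Figure D2:**
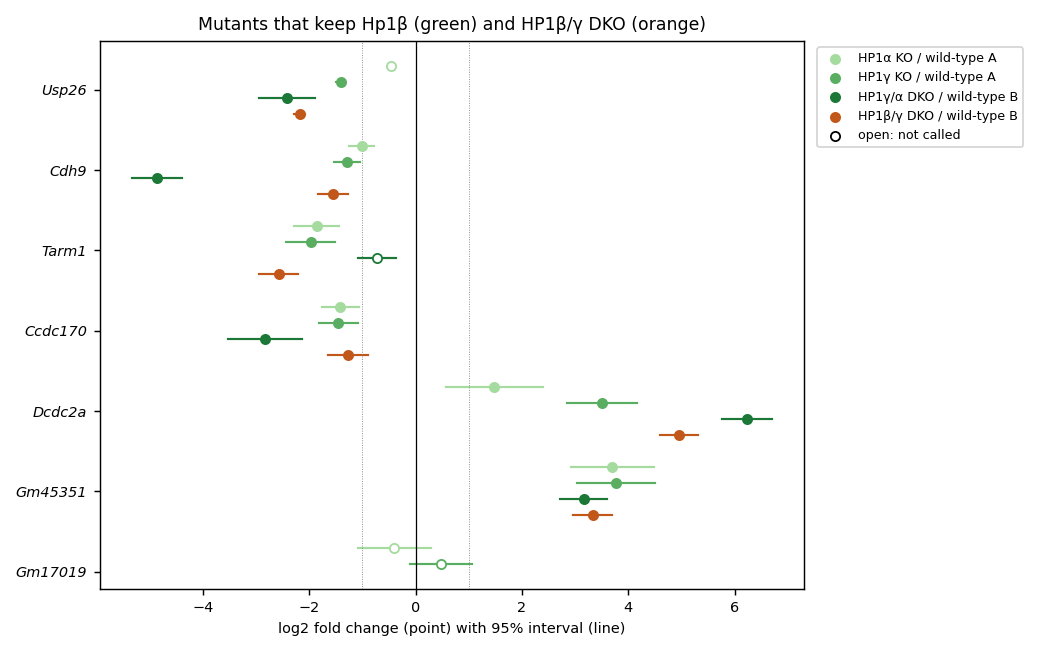
Log2 fold change against *wild-type* with its 95% interval for each gene in the 3 *Hp1* mutants that keep *Hp1β* (greens) and in HP1β/γ DKO ESCs (orange), with filled points for called changes and dotted lines at −1 and 1. The greens and the orange lie on the same side of 0 for the 6 genes tested in all 4. The filter fixed this side for *Dcdc2a*, and for *Gm45351* against set A. *Cdh9* reaches −4.87 and *Dcdc2a* 6.24 in HP1γ/α DKO ESCs. *Gm17019* could be tested only in the single mutants.

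The direct test of loss of *Hp1β* against loss of *Hp1α*, in cells that all lack *Hp1γ* and were deposited beside the same *wild-type* set, compared HP1β/γ DKO with HP1γ/α DKO ESCs. Of the 6 genes tested, 4 were called, 2 higher and 2 lower, beside 23.9% of all genes. *Tarm1* was lower in cells without *Hp1β*, by a log2 fold change of −1.85 (standard error 0.239, edgeR adjusted p = 0.00097) and of −1.71 without HP1γ/α DKO replicate 2, the direction in which it was picked. *Dcdc2a* was also lower, by −1.28 (standard error 0.104, edgeR adjusted p = 0.000146), against the direction in which it was picked. *Cdh9* was higher without *Hp1β* by 3.32 (standard error 0.28, edgeR adjusted p = 0.000166), and *Ccdc170* by 1.56 (standard error 0.406, edgeR adjusted p = 0.0188), again against the direction of choice. *Cdh9* had 5 to 8 counts in HP1γ/α DKO libraries and passed the filter through HP1β/γ DKO ESCs. The *Ccdc170* call is lost without HP1β/γ DKO replicate 2 or 3, with adjusted p = 0.0672 and 0.0724 from edgeR. Without HP1γ/α DKO replicate 2 *Ccdc170* differed by 1.21 and *Dcdc2a* by −1.34, both still called. *Usp26* differed by 0.23 (95% interval from −0.27 to 0.74) and by −0.04 without HP1γ/α DKO replicate 2. *Gm45351* differed by 0.16 (95% interval from −0.17 to 0.49), and by 0.31 without HP1γ/α DKO replicate 2 (edgeR adjusted p = 0.0498), inside the fold threshold. Only *Tarm1* of the 6 genes thus moved further with the loss of *Hp1β* than with the loss of *Hp1α* by this test. The cells compared also differed in state. In HP1β/γ DKO ESCs 4 of the 8 pluripotency markers were lower and 4 of the 5 feeder markers tested were higher. The markers of 2-cell-like cells summed to 34.4 to 34.7 CPM there, against 0.28 to 1.1 CPM in HP1γ/α DKO ESCs. The part of these states in the calls was not tested.

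A pair of further contrasts differ in genotype by *Hp1β* alone, but the cells stand beside different *wild-type* sets. Between HP1β/γ DKO and HP1γ KO ESCs 3 of the 7 genes were called, beside 17.6% of all genes, namely *Dcdc2a*, *Gm45351* and *Gm17019*, the last on its reading of 0 in the set B tables. *Dcdc2a* was higher by 2.02 (standard error 0.123), and by 1.44 (adjusted p = 0.016 from edgeR) when each mutant was taken relative to its own *wild-type* set. *Gm45351* was higher by 1.30 (standard error 0.15), but the sign turned to −0.45 (adjusted p = 0.431 from edgeR) relative to the own *wild-type* sets. *Usp26* was lower by −0.75 (standard error 0.0513, edgeR adjusted p = 4.46e-09), inside the fold threshold, and *Cdh9*, *Tarm1* and *Ccdc170* by −0.56, −0.59 and −0.06. Between the triple mutant and HP1γ/α DKO ESCs 6 of the 7 were called, 4 higher and 2 lower, beside 46.8% of all genes. Among the 4 is *Gm17019*, again on its reading of 0 in the set B tables, and its call is lost relative to the own *wild-type* sets. *Usp26* was lower by −2.31 (standard error 0.288), with 5.7 to 7.42 CPM in the triple mutant, while *Cdh9* (1.47), *Ccdc170* (2.84) and *Gm45351* (1.37) were higher and *Dcdc2a* (−1.62) lower. *Cdh9* passed the filter through the triple mutant, and its call is lost without HP1γ/α DKO replicate 3 (adjusted p = 0.0581 from edgeR). In both contrasts *Usp26* was thus lower in the line without *Hp1β*, although by less than the threshold in one, and *Dcdc2a* differed with opposite sign. The triple mutant was derived from HP1β/α DKO and not from HP1γ/α DKO ESCs, and its pluripotency marker sum was far lower, so the second contrast is one between separate lines.

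**Figure D3:**
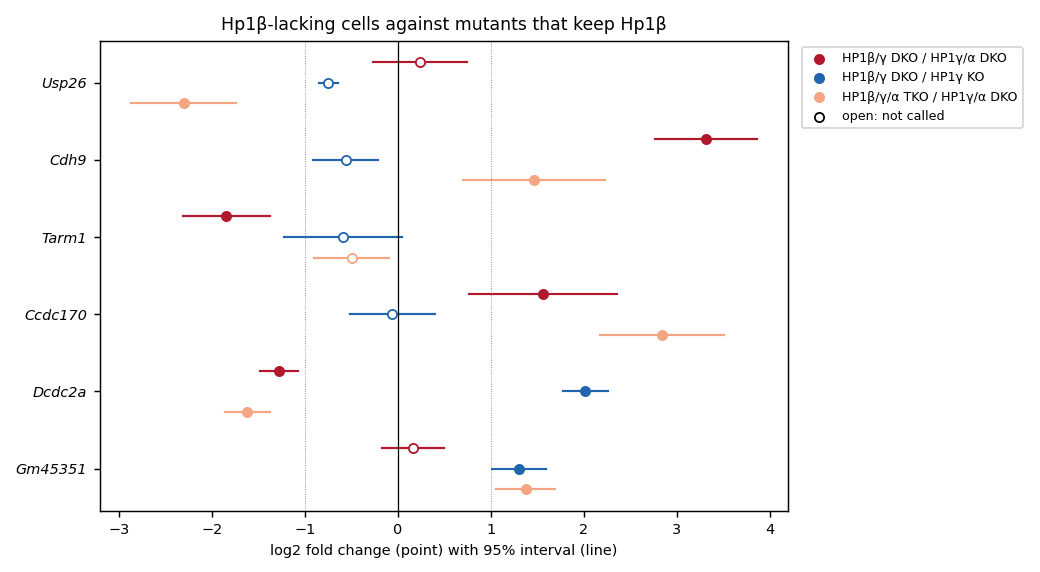
Log2 fold change with its 95% interval between cells that lack *Hp1β* and mutants that keep it, for the 6 genes not affected by the reading of 0 in set B, with filled points for called changes and dotted lines at −1 and 1. *Tarm1* is lower in HP1β/γ DKO than in HP1γ/α DKO ESCs (−1.85) while *Cdh9* is higher (3.32), and *Dcdc2a* lies on both sides of 0 (2.02 and −1.62).

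In the triple mutant, 6 of the 7 genes were called against *wild-type* set A, 3 higher and 3 lower, beside 42.3% of all genes, and 6 of the 7 against set B, beside 44.2%, with *Gm17019* again read against 0. Here *Dcdc2a*, and *Gm45351* against set A, passed the filter through the triple mutant, so their direction is not read. The order of genotypes was not one of steadily larger changes. *Ccdc170* read 5.62, 6.37 and 6.38 CPM in the triple mutant, within the *wild-type* range, and differed from set A by −0.18 (95% interval from −0.47 to 0.12). *Tarm1* read 2.32, 2.52 and 2.28 CPM, above each of its single and double mutants except HP1γ/α DKO ESCs. *Usp26* (−4.65) and *Cdh9* (−3.64) stayed low, while *Dcdc2a* (5.24) and *Gm45351* (6.33) stayed high, and *Gm45351* reached its highest level of the series at 15.9 to 18.6 CPM.

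SETDB1 KO cells, in which no *Hp1* gene was targeted, were compared with SETDB1 FF ESCs. This set the 7 genes beside loss of one of the enzymes that write the mark HP1 reads. Of the 6 genes tested 5 were called, 3 higher and 2 lower, beside 29.9% of all genes, and *Cdh9* had too few counts. Among the 3 higher, *Gm17019* passed the filter through SETDB1 KO cells, so its direction is not read. *Usp26* read 0.6, 1.13 and 0.827 CPM in SETDB1 FF ESCs and 25.6, 27.0 and 25.9 CPM in SETDB1 KO cells, which is 4.96 on the log2 scale (standard error 0.133, edgeR adjusted p = 6.40e-16). Its direction was thus the opposite of that in every *Hp1* mutant. The lowest *Usp26* level of all 11 conditions was found in SETDB1 FF ESCs (no test was made of these against the *wild-type* sets, which stand in other tables). *Cdh9* likewise read 0.05 to 0.236 CPM in SETDB1 FF ESCs. *Cbx1* was lower in SETDB1 FF ESCs (173 ± 3.48 CPM, SD, n = 3) than in either *wild-type* set, and lower again in SETDB1 KO cells (113 ± 1.47 CPM, SD, n = 3).

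Of the X-linked germ cell genes listed with *Usp26*, all 6 others that were tested were also called higher in SETDB1 KO cells, but 4 of them averaged at most 0.178 CPM in SETDB1 FF ESCs and passed the filter through the knockout. *Taf7l*, a testis form of a general transcription factor subunit, rose from 2.83 to 313 CPM, and *Tex11*, a meiosis gene, from 8.07 to 163 CPM. In HP1β/γ DKO ESCs 1 of the 2 others tested was called, *Taf7l* with −1.34, beside 11.9% of all genes. In HP1γ/α DKO ESCs it was 0 of 2, beside 23.1%. In the triple mutant, where 42.3% of all genes were called against set A, 6 of the 7 others tested were higher and 0 lower. Against set A, 4 others could be tested in HP1β KO ESCs, 3 in HP1α KO, 3 in HP1γ KO and 2 in HP1β/α DKO ESCs. Others of the 7 thus passed the filter through the triple mutant and could only come out higher, so their direction is not read. *Usp26* was lower in the triple mutant. *Dcdc2a* read 0.65, 1.07 and 1.18 CPM in SETDB1 FF ESCs and 6.93, 7.91 and 7.08 CPM in SETDB1 KO cells, a log2 fold change of 2.94 (standard error 0.196). *Tarm1* (−1.06) and *Ccdc170* (−1.23) were lower, and *Gm45351* was higher by 0.96 (95% interval from 0.71 to 1.22), inside the fold threshold. The *Tarm1* call is lost without SETDB1 KO replicate 2 (−0.89) or SETDB1 FF replicate 3 (−0.96).

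*Gm17019* behaved unlike the others. It read 653, 642 and 655 CPM in the triple mutant and 162, 164 and 161 CPM in SETDB1 KO cells, against 1.30, 1.71 and 1.07 CPM in set A and 0, 0.452 and 0.118 CPM in SETDB1 FF ESCs. The log2 fold changes were 8.93 (standard error 0.0557, edgeR adjusted p = 9.11e-26) and 9.76 (standard error 0.13). SETDB1 FF libraries held at most 7.96 counts of *Gm17019*. It passed the filter there through SETDB1 KO cells and could only come out higher, so that direction is not read. The levels of 10.8 to 13.4 CPM in HP1β KO ESCs that picked the gene are thus a small part of its range. In HP1α KO and HP1γ KO ESCs it was not called against set A, with log2 fold changes of −0.40 and 0.48 (95% intervals from −1.09 to 0.29 and from −0.11 to 1.07). In the 9 libraries deposited with set B, *Gm17019* had 0 counts in all but one, which held 1 count. A reading of 0 allows up to 3 counts in a library. A total of 66 genes had at least 10 counts in each library of set A and 0 in all 9 of these libraries. With at most 3 counts summed over the 9, as for *Gm17019*, it was 103 genes. In reverse, 13 genes had at least 10 counts in each library of set B and 0 in the tables with set A. A value of 0 there can thus reflect how those tables were made, and no difference across the tables is read from it.

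The *Gm17019* transcript (1162 bases) has 24 other genes with transcripts at least 90% identical over at least 50% of its length, and the closest, *Gm9758*, is 97.9% identical over its whole length. These include *Speer4c*, *Speer4d* and *Speer4e*, members of a spermatogenesis-associated family with many copies. Reads cannot be told apart between such copies where they are identical, so the division of counts among them is uncertain. Of the 24, 6 had enough counts to be tested in the triple mutant, 2 in SETDB1 KO cells and 0 in the single mutants or HP1β/α DKO ESCs, so those 6 passed the filter through the triple mutant and their direction is not read. *Gm45351* has 2 such genes, *Gm3912* with 98.6% identity over 79.3% of its length and *Gm20482*, and the other 5 members have none.

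The genes around *Gm17019* are given by their levels. Within 1 Mb, 14 other genes had enough counts in the triple mutant and set A, but 8 of the 14 had no counts in set A, passed the filter through the triple mutant and could only come out higher, so their direction is not read as a result. *Speer4cos*, an antisense transcript at 667 kb, averaged 0.08 CPM in set A and 56.5 CPM in the triple mutant, and *Gm21149*, at 443 kb, read 5.66 CPM against 0 counts in set A. *Pclo* and *Cacna2d1*, neuronal genes that flank the region, differed by −0.19 and 0.55 and were not called. In SETDB1 KO cells *Speer4cos* averaged 226 CPM against 0.40 CPM in SETDB1 FF ESCs. There *Pclo* was called higher by 2.42 and *Sema3e* lower by −2.06, while *Cacna2d1* differed by 0.85 and was not called. In HP1β/γ DKO ESCs, where *Gm17019* itself is listed at 0 or 1 count, *Speer4cos* was higher than in set B by a log2 fold change of 4.83 and *Pclo* lower by −3.73, and *Pclo* was also lower in HP1γ/α DKO ESCs, by −4.35. Since copies in the region share reads, these genes are not independent of *Gm17019*. *Gm6288* and *Gm26844*, on chromosomes 6 and 13, had the levels over 33 libraries most like those of *Gm17019* (Pearson r = 0.980 and 0.976), with 98.7 and 13.3 CPM in the triple mutant against 0.297 and 0.406 CPM in set A.

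**Figure D4:**
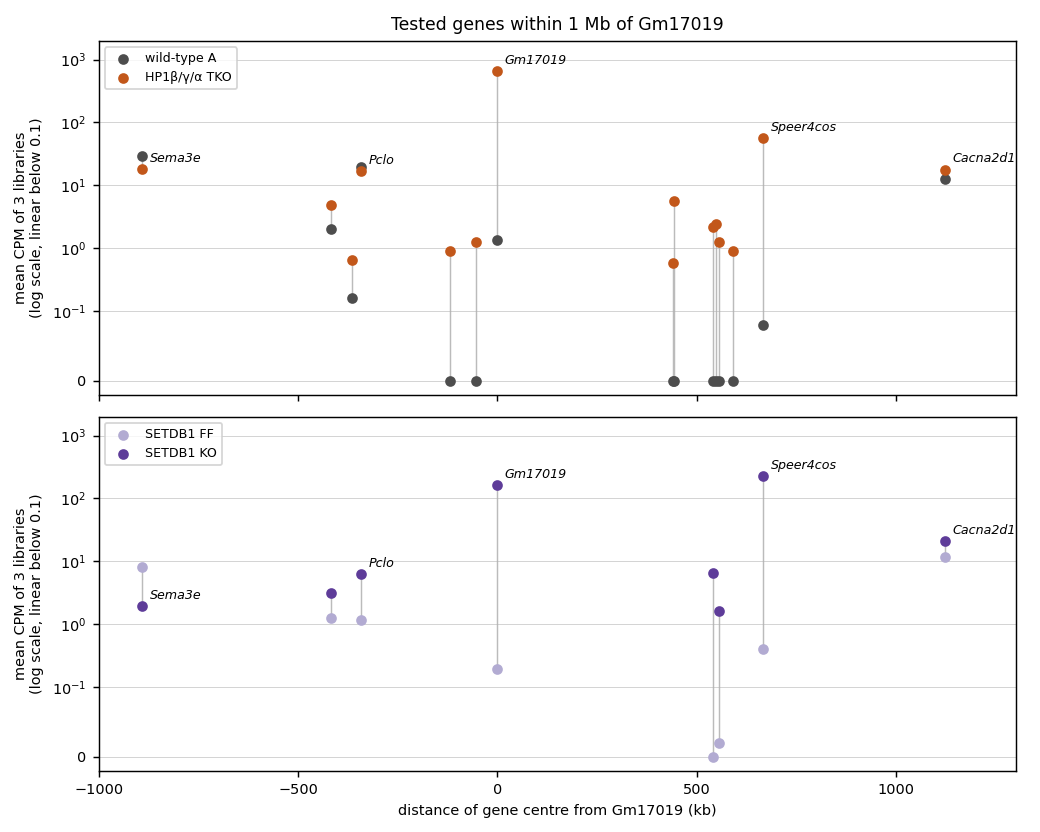
Mean CPM of 3 libraries (log scale that is linear below 0.1) of each tested gene within 1 Mb of *Gm17019* against the distance of its centre in kb, for the triple mutant and set A (top) and for SETDB1 KO cells and SETDB1 FF ESCs (bottom), with grey lines joining the values of a gene. Genes from −119 to 667 kb are at most 1.36 CPM in set A. Of the 14 genes tested there besides *Gm17019*, 8 had no counts in set A and passed the filter through the triple mutant, so their direction is not read. In the triple mutant *Sema3e*, *Pclo* and *Cacna2d1* differ from set A by log2 fold changes of −0.64, −0.19 and 0.55. In SETDB1 KO cells these 3 differ from SETDB1 FF ESCs by −2.06, 2.42 and 0.85.

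The surroundings of the other members were examined in both double mutants that lack *Hp1γ*. Of all genes tested, 11.9% were called in HP1β/γ DKO ESCs and 23.1% in HP1γ/α DKO ESCs. Within 1 Mb of *Usp26* 1 of 8 was called in the former and 4 of 8, all lower, in the latter. Its nearest tested neighbour *Hs6st2*, a heparan sulfate sulfotransferase gene at 72103 bp, differed by 0.55 in the former and by −2.50 in the latter. Around *Tarm1* 3 of 26 and 5 of 26 were called, around *Ccdc170* 1 of 10 and 2 of 9, and around *Dcdc2a* 1 of 11 and 2 of 10. The counts around these last 3 lie near the shares of all genes, and no local effect is read from so few genes. *Armt1* and *Mrs2*, the closest tested neighbours of *Ccdc170* and *Dcdc2a*, were called in neither double mutant, with log2 fold changes from −0.28 to 0.61. *Cdh9* has no tested gene within 1 Mb in these comparisons, and the neighbour of *Gm45351* called in HP1β/γ DKO ESCs was *Zscan4a*, a gene of 2-cell-like cells. The median log2 fold change of chromosome X was −0.04 and −0.16 in the double mutants, against −2.18 and −2.42 for *Usp26*.

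Relatives of the members, taken from gene lists, were called in both directions. The counts stand beside 11.9% of all genes called in HP1β/γ DKO ESCs and 23.1% in HP1γ/α DKO ESCs. The lists are short, so no result about a family is read from them. Among the other type II cadherins, 6 were tested in HP1β/γ DKO ESCs and 3 were higher, including *Cdh18* with 5.28 against 0.413 CPM, and none lower. In HP1γ/α DKO ESCs *Cdh18* was higher and *Cdh10* was lower, at 0.234 against 3.01 CPM, and 3 of the 5 others tested were not called. Among the deubiquitinases listed with *Usp26*, 2 of 6 others were lower in each double mutant, *Usp11* and *Usp29* without *Hp1β* and *Hp1γ* and *Usp29* and *Usp51* without *Hp1α* and *Hp1γ*. *Dcdc2c*, a relative of *Dcdc2a*, was higher in HP1β/γ DKO ESCs with 1.202 against 0.212 CPM, and *Dclk1*, a doublecortin-like kinase gene, was lower in HP1γ/α DKO ESCs with 0.371 against 1.62 CPM. Of the 8 leukocyte receptor genes listed with *Tarm1*, none passed the filter on low counts in an *Hp1* comparison. In SETDB1 KO cells *Oscar* was the 1 of them tested, and it was higher with 0.754 against 0.124 CPM.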

How the data were processed

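RNA-seq libraries were grouped by the genotype in their labels, and *wild-type* sets A and B by their titles. Per the labels' processing notes the authors used TopHat2 2.1.1, RSEM and edgeR with GRCm38.p5, and the paper's methods name DESeq2. The authors deposited expected counts (estimated read counts per gene, not normalized), and TPM (normalized by length and library) beside them in the same tables. The authors' log2 fold changes and p-values hold their own comparisons and were not used. Total counts ran from 17330936 to 25743149 per library, and a gene near 10 counts is at the edge of what the filter keeps.

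Expected counts were rounded. Each comparison was fitted on its 6 libraries in edgeR 4.0.16 (R 4.3.3, limma 3.58.1) with filterByExpr at a minimum count of 10, TMM, glmQLFit and glmQLFTest, and Benjamini-Hochberg adjustment. Values in CPM used TMM over all 33 libraries. Intervals cover 95%. With 3 libraries against 3 an exact permutation test cannot go below p = 0.1. No test was read where HP1β KO or HP1β/α DKO libraries entered, since they picked the genes. The members, lists and named genes were chosen with earlier results of these data known. Besides the members, the text names the targeted genes, the 2 genes most like a member by Pearson r, nearest tested neighbours, the 2 genes ranked next to the members (1 of them is not reported here), and called genes of the lists. *Speer4cos*, *Gm21149*, *Zscan4a*, *Sema3e* and the genes with near-identical transcripts were named after their values were seen. Positions come from GENCODE M21 (55141 of 55487 identifiers matched), and likeness of transcripts from BLAST 2.17.0. In simulated data 100% of 200 changed genes were recovered for HP1β/γ DKO ESCs against set B (16263 genes), with 0 unchanged genes called. For HP1γ/α DKO ESCs against set B (15841 genes) 100% were recovered and 2 unchanged genes were called. The changed genes were well counted, had large folds and shared the same dispersion, so recovery of members with few counts was not tested. Alternatives were RLE size factors, DESeq2 1.42.0, 2 other filters, a fit of all libraries, a replicate block, each library left out in turn, and each mutant relative to its own *wild-type* set.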

Additional observations from a re-analysis of the deposited data

How the results depend on the processing

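The number of members called stayed within 1.5 times its value in all 13 tested comparisons with RLE size factors, no filter beyond 1 count, the fit of all 33 libraries and the replicate block. With at least 10 counts in every library fewer members could be tested, and 2 of 3 were called in HP1γ/α DKO ESCs against set B, 2 of 4 in HP1β/γ DKO against HP1γ/α DKO ESCs, 3 of 4 in the triple mutant against HP1γ/α DKO ESCs, 3 of 5 in HP1α KO ESCs against set A, 3 of 4 in SETDB1 KO cells and 0 of 4 between the *wild-type* sets. Relative to the own *wild-type* sets 1 of 7 was called between HP1β/γ DKO and HP1γ KO ESCs, where *Gm45351* turned to −0.45 and *Gm17019* to 1.31 (adjusted p = 0.465 from edgeR), the latter on libraries at 0. DESeq2 called 1 member between the *wild-type* sets. With libraries left out in turn the count ran from 3 to 5 for HP1α KO ESCs against set A, from 3 to 4 for HP1β/γ DKO against HP1γ/α DKO ESCs, from 4 to 6 for SETDB1 KO cells, and from 1 to 2 between the *wild-type* sets. The count of 3 in HP1α KO ESCs and that of 1 between the sets arose without set A replicate 1.

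The same filter lowered the number of all genes called by more than 1.5 times in most comparisons, for example from 1929 to 1139 in HP1β/γ DKO ESCs against set B, from 3871 to 2522 between HP1β/γ DKO and HP1γ/α DKO ESCs, from 2887 to 1590 between HP1β/γ DKO and HP1γ KO ESCs, from 8273 to 4996 between the triple mutant and HP1γ/α DKO ESCs, and from 4918 to 3058 in SETDB1 KO cells. Against set A it gave 469 in place of 772 in HP1α KO ESCs, 572 in place of 884 in HP1γ KO ESCs, 4866 in place of 7400 in the triple mutant and 845 in place of 1292 in HP1β/α DKO ESCs. Against set B it gave 734, 915 and 5014 in place of 1438, 1693 and 7790, and between the *wild-type* sets 386 in place of 909. Relative to the own *wild-type* sets 1650 genes were called between HP1β/γ DKO and HP1γ KO ESCs.

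Replicate numbers are shared between groups, but same-numbered libraries did not deviate together: the correlation of their deviations ran from −0.187 to 0.116 over the 13 tested comparisons, and in none did all 3 numbers exceed 0.1. With the replicate block 6 members were called in HP1β/γ DKO ESCs, 5 in HP1γ/α DKO ESCs and 4 between them, the same numbers as without it, and 1933, 3547 and 3717 genes in all. Depth limits *Tarm1* in HP1β KO ESCs, whose libraries held 1 to 9 counts of it, and its log2 fold change there was −4.66 with all libraries and −5.78 without replicate 1.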
